A study of Mus musculus with 14 samples.

Results

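The genes of MHC class II antigen presentation followed here are H2-Aa, H2-Ab1, H2-Eb1, Cd74, H2-DMa, H2-DMb1 and Ciita, chosen by name as the classical chains, their chaperone, the peptide exchange chains and the transactivator of the pathway. All 7 were found among the 52636 genes of the count table, and all 7 passed the filter on low counts, as did 18394 genes in all. MHC class II molecules are pairs of an alpha and a beta chain that hold peptides from endosomes on the cell surface for CD4+ T cells. The invariant chain made from Cd74 escorts new pairs and blocks their groove, the H2-DM pair made from H2-DMa and H2-DMb1 helps to exchange the last fragment of the invariant chain for a peptide, and the protein made from Ciita switches the genes on through a complex bound at their promoters. In skin the pathway is best known from dendritic cells, Langerhans cells, macrophages and B cells, and interferon gamma can induce it in other cells.

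RNA was sequenced from cells sorted by flow cytometry from the dermis of the wound bed in male C57/BL6 mice aged 7 weeks, on day 5 after injury in all groups, with 2 libraries in each of 7 groups. A newly deposited set held AdipoqTraced cells, which the labels describe as GFP, CD26 cells (CD26 is the protein made from Dpp4) and Adipocyte. A reanalysed set from an earlier series held CD29 cells (high for CD29, the product of Itgb1, per the file headers), DN cells (CD29-low per the headers), AP_CD9High and AP_CD9Low; the labels do not spell out AP or DN. No treatment other than the injury is labelled, and neither the alleles behind the tracing nor the sorting gates are given in the sources used here. Because no group occurred in both sets, set and group cannot be told apart, and comparisons were made within sets only. Whether replicates are separate animals is not labelled. Each p-value is therefore a statement about the spread of these libraries, which may be technical.

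Library totals ran from 13760557 to 22218364 counts. Mitochondrially encoded genes held 18.45% to 38.77% of the counts in AdipoqTraced and CD26, 79.07% and 84.79% in Adipocyte, and at most 0.94% in the reanalysed set, so the Adipocyte libraries held only 2952186 and 3255546 counts of other genes. Of 6 fibroblast markers, the summed level was 34271 to 61753 CPM in AdipoqTraced and CD26 against 4631 and 9525 CPM in Adipocyte. Of 6 adipocyte markers it was 19.1 to 70.9 CPM in AdipoqTraced and CD26, against 6568 and 10118 CPM in Adipocyte. CPM is the count scaled to a common library size after TMM normalisation, a correction for libraries in which a few genes take much of the depth. CD29 and DN held 43423 to 59279 CPM of the fibroblast markers and the AP groups 97830 to 111249 CPM. Pan-leukocyte markers were detected in every library, with 7 of them summing to 180 CPM at the lowest and 1291 CPM at the highest.

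The promoters of H2-Aa and H2-Eb1 are shown because they carry the paired elements, the X box and the Y box, through which the transactivator complex is known to act. They are copied from the RefSeq promoter table (GRCm38.p6), 120 to 31 bases before the annotated start, 5′ to 3′ on the strand of the gene. Capitals mark the letters CTNGNAAC, taken for the X box, and ATTGG, taken for the Y box, both chosen, with their spacing, after the promoters of H2-Aa, H2-Eb1 and H2-DMb1 were seen. H2-Aa lies on the minus strand (chr17:34287854-34287943) and H2-Eb1 on the plus strand (chr17:34305747-34305836).
H2-Aa: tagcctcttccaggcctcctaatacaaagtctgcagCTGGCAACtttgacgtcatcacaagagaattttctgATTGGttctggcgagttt
H2-Eb1: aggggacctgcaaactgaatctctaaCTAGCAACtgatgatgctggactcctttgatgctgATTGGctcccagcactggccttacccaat

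The starts of the elements lay 36 bases apart in H2-Aa and 35 in H2-Eb1. H2-DMb1 held CTAGTAAC and ATTGG 36 bases apart in the same table, but the GENCODE annotation of mm10 starts that gene further upstream, so its surroundings are not printed. Searched on both strands in all 32851 promoter windows of 300 bases, the X letters alone occurred in 13.2% and the Y letters alone in 37.4%, while both at 35 to 36 bases occurred in 11 windows, or 0.0335%. That 3 of the 11 belonged to these genes follows from how letters and spacing were chosen and is a description only. For H2-DMa the table held 2 windows, 0 of them with the X letters and 1 with the Y letters, which says only that these letters are not in those windows. H2-Ab1, Cd74 and Ciita had no entry. A match is a description of letters and not a measurement of binding.

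The classical chains and the invariant chain were detected in all 14 libraries, whereas H2-DMb1 and Ciita were at 0 in some. H2-Aa (chromosome 17, 34282744 to 34287823, minus strand, mm10) encodes the alpha chain of the I-A molecule. It stood at 309 and 207 CPM in AdipoqTraced, 325 and 459 CPM in CD26 and 120 and 276 CPM in Adipocyte. In the reanalysed set it stood at 40.1 and 102 CPM in CD29, 107 and 66.8 CPM in DN, 15.3 and 45.6 CPM in AP_CD9High and 12.7 and 37.5 CPM in AP_CD9Low. Both AP groups were low, and the 2 CD29 libraries were further apart than the 2 DN libraries.

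H2-Ab1 (chromosome 17, 34257689 to 34269419), the beta chain of I-A, stood at 462 and 307 CPM in AdipoqTraced, 379 and 596 CPM in CD26 and 182 and 449 CPM in Adipocyte. It stood at 68.8 and 219.7 CPM in CD29, 235 and 138 CPM in DN, 31.6 and 127 CPM in AP_CD9High and 29.1 and 72.4 CPM in AP_CD9Low. H2-Eb1 (chromosome 17, 34305867 to 34316674) encodes the beta chain of the I-E molecule. Its alpha chain partner is annotated as the pseudogene H2-Ea-ps, which had 0 counts in all 14 libraries. H2-Eb1 stood at 124 and 107 CPM in AdipoqTraced, 127 and 119 CPM in CD26 and 48.4 and 129 CPM in Adipocyte, against a lowest value of 15.8 CPM in AP_CD9Low and a highest of 120 CPM in DN within the reanalysed set. Its AdipoqTraced and CD26 libraries were alike, while the Adipocyte libraries lay far apart.

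Cd74 (chromosome 18, 60803848 to 60812652), the invariant chain gene, stood at 192 and 284 CPM in AdipoqTraced, 541 and 453 CPM in CD26 and 297 and 481 CPM in Adipocyte. It stood at 150.4 and 488 CPM in CD29, 397 and 259 CPM in DN, 76.3 and 169 CPM in AP_CD9High and 61.7 and 137 CPM in AP_CD9Low. After TMM normalisation the AdipoqTraced libraries held less Cd74 than either other group of their set, without overlap. Neither difference passed the tests below. With library size alone in place of TMM, the log2 fold change against Adipocyte turned to 1.38.

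H2-DMa (chromosome 17, 34119541 to 34139101), the alpha chain of the exchange factor, stood at 38.3 and 3.15 CPM in AdipoqTraced, 2.09 and 3.53 CPM in CD26 and 5.401 and 24.03 CPM in Adipocyte. The first AdipoqTraced library held 595 counts of it and the second 49. In the reanalysed set H2-DMa ran from 2.94 CPM in AP_CD9High to 16.3 CPM in CD29. H2-DMa shares 360 exon bases with Brd2 on the opposite strand, and since the counting is not stated to use strand its values are uncertain. Brd2 itself stood at 171 and 207 CPM in AdipoqTraced.

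H2-DMb1 (chromosome 17, 34153072 to 34160230), the beta chain of the exchange factor, stood at 9.79 and 7.14 CPM in AdipoqTraced, 5.68 and 5.67 CPM in CD26 and 0 and 9.97 CPM in Adipocyte. It stood at 9.03 and 12.5 CPM in CD29, 28.9 and 14.9 CPM in DN, 6.88 and 8.63 CPM in AP_CD9High and 2.43 and 8.19 CPM in AP_CD9Low. Of its 50-base stretches 27.2% also occur in H2-DMb2, a near copy with at most 42 counts in any library, so reads could be split between the pair and H2-DMb1 is uncertain.

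Ciita (chromosome 16, 10480059 to 10528418), the transactivator gene, was sparse and uneven. It had 308 and 0 counts in AdipoqTraced, 74 and 71 in CD26 and 31 and 6 in Adipocyte. It had 0 and 26 counts in CD29, 46 and 0 in DN, 3 and 0 in AP_CD9High and 0 and 22 in AP_CD9Low. Both libraries were above 0 only in CD26 and Adipocyte, and within AdipoqTraced, CD29, DN, AP_CD9High and AP_CD9Low one library carried all of the counts. A count of 0 allows up to 3 counts in that library, counting error only. Ciita also shares 329 exon bases with Dexi on the opposite strand.

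**Figure D1:**
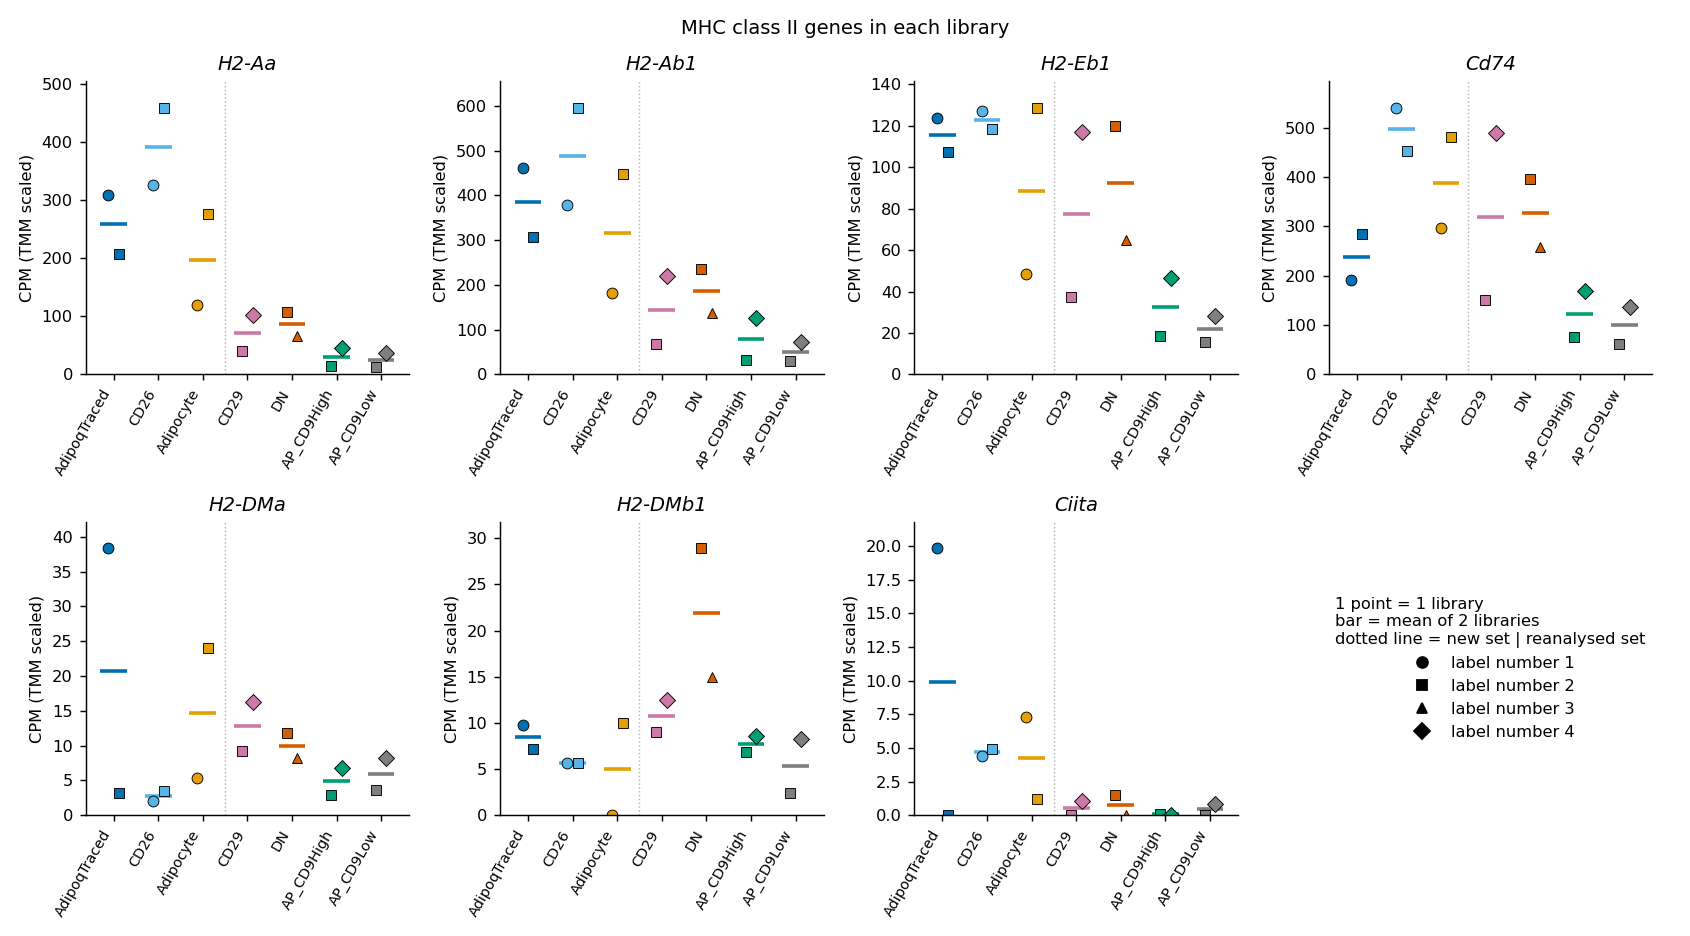
Levels of the 7 MHC class II genes in CPM (linear axes from 0), with 1 point per library, the mean of 2 libraries as a bar and the number in the label as the symbol. H2-Aa lies at 120 to 459 CPM in the new set and at 12.7 to 107 CPM in the reanalysed set, and the library with label number 4 lies above the library with label number 2 for every gene in CD29 and both AP groups, except Ciita in AP_CD9High with 0 and 3 counts.

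The plot of levels by library also shows how uneven replicates were. Set per kilobase of the main coding transcript, which allows genes to be compared within a library, Cd74 led in 10 libraries and H2-Ab1 in 4. The choice of length mattered, since over all annotated exons Cd74 led in 13 and H2-Ab1 in 1. Per kilobase, H2-Ab1 had a median level of 342 CPM per kb in the new set and 82.3 CPM per kb in the reanalysed set. Cd74 had a median level of 266 CPM per kb in the new set and 113 CPM per kb in the reanalysed set. Ciita ranked sixth or seventh in every library, with at most 3.30 CPM per kb.

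The proportions among the chains differed between the sets. There were 0.416 to 1.63 counts of Cd74 per count of H2-Ab1 in the 6 new libraries, against 1.33 to 2.42 in the 8 reanalysed ones, ranges that overlap. For H2-Aa the counts per count of H2-Ab1 were 0.615 to 0.857 in the new set and 0.359 to 0.582 in the reanalysed set, without overlap. H2-Eb1 went the other way, at 0.199 to 0.349 per count of H2-Ab1 in the new set and 0.368 to 0.588 in the reanalysed set. These ratios do not depend on the scaling of a library, but no test was made of them, because set and group cannot be told apart.

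The first comparison set AdipoqTraced cells against Adipocyte, and none of the class II genes passed the test. By edgeR's quasi-likelihood test with Benjamini-Hochberg adjustment, 0 of 7 genes were called at an adjusted p under 0.05, beside 10.4% of all genes tested. At an unadjusted p under 0.05 there were 0. DESeq2 called 0 as well, beside 25.5% of the genes to which it gave an adjusted p. The median log2 fold change of the 7 was 0.37, beside 0.19 over all genes tested. H2-Aa had a log2 fold change of 0.37 (95% interval -0.84 to 1.59, n = 2 per group). Cd74 averaged 238 ± 65.0 CPM in AdipoqTraced and 389 ± 130 CPM in Adipocyte (SD, n = 2 each), a log2 fold change of -0.71 (95% interval -1.82 to 0.40, edgeR adjusted p = 0.489).

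Some leukocyte markers rose in AdipoqTraced against Adipocyte while the class II genes did not pass. Ptprc, which encodes the pan-leukocyte antigen CD45, stood at 167 and 133 CPM in AdipoqTraced against 34.5 and 53.9 CPM in Adipocyte and rose by 1.75 on the log2 scale (SE 0.35, edgeR adjusted p = 0.00263). Of 7 leukocyte markers 2 rose and of 15 macrophage and monocyte markers 5 rose, and none of either was called lower. The median log2 fold change of the 7 leukocyte markers was 0.77, with Ptprc the highest. Coro1a, at -0.49, and Cd52, at -0.45, had estimates the other way and did not pass. The 7 leukocyte markers summed to 794 and 623 CPM in AdipoqTraced against 264 and 470 CPM in Adipocyte. In bulk samples, fewer cells of a type and less RNA per cell cannot be told apart. The part of these markers in the class II values was not tested.

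The scaling of the Adipocyte libraries decided the count. With library size alone in place of TMM, 6 of the 7 genes were called higher in AdipoqTraced, beside 44.6% of all genes tested, while the median gene shifted by about as much, to a log2 fold change of 2.25. Relative to that shift, H2-Aa, at 2.48 with library size alone, stood close to the median gene under either scaling. Cd74, at -0.71 after TMM, was at 1.38 with library size alone and lay below the median gene under both.

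In AdipoqTraced cells against CD26 cells no class II gene passed the test either. EdgeR called 0 of 7 genes, with 1 at an unadjusted p under 0.05, beside 3.86% of all genes tested in AdipoqTraced against CD26. DESeq2 called 0 as well, beside 10.2% of the genes to which it gave an adjusted p. Cd74 was lowest in AdipoqTraced, at 238 ± 65.0 CPM against 497 ± 62.1 CPM in CD26 (SD, n = 2 each), a log2 fold change of -1.06 (95% interval -2.15 to 0.03, edgeR adjusted p = 0.271). H2-DMa had the largest estimate, 2.90 (SE 0.99, edgeR adjusted p = 0.116), which rested on 1 library. Without AdipoqTraced replicate 1 the estimate was 0.16, and without AdipoqTraced replicate 2 it was 3.78 and H2-DMa was called. The median log2 fold change of the 7 was -0.09, beside 0 over all genes tested.

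CD26 cells against Adipocyte gave the same count. EdgeR called 0 of 7 genes, with 0 at an unadjusted p under 0.05, beside 10.6% of all genes tested in CD26 against Adipocyte. DESeq2 called 0 as well, beside 26% of the genes to which it gave an adjusted p. H2-Aa averaged 392 ± 94.4 CPM in CD26 and 198 ± 110 CPM in Adipocyte (SD, n = 2 each), without overlap, for a log2 fold change of 0.98 (95% interval -0.24 to 2.20, edgeR adjusted p = 0.374). H2-DMa lay the other way, at -2.47 (95% interval -5.06 to 0.12, edgeR adjusted p = 0.264). With library size alone 4 genes were called higher, beside 35.3% of all genes tested and a median of 1.95 over all genes.

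Genes that act with class II did differ in CD26 against Adipocyte. Of 8 genes of antigen processing, 6 rose and 0 fell, among them the asparaginyl endopeptidase gene Lgmn (2.44, SE 0.29, edgeR adjusted p = 1.7e-05) and the cathepsin gene Ctsh (2.02, SE 0.32). Of 6 genes of costimulation, 3 rose. Cd86, a ligand of CD28 on T cells, stood at 69.5 and 91.0 CPM in CD26 against 1.88 and 17.8 CPM in Adipocyte (2.94, SE 0.58). Ptprc rose in CD26 against Adipocyte by 2.26 (SE 0.35), and 6 of 15 macrophage and monocyte markers rose. The part of the leukocyte markers in these values was not tested.

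Of 6 genes of the interferon gamma pathway, 0 rose and 1 fell in AdipoqTraced against Adipocyte, at a median log2 fold change of -0.03, and 1 rose and 2 fell in CD26 against Adipocyte, at a median of -0.04. The one that fell in both was Irf1. Irf1, an interferon-induced transcription factor that acts on class I genes and on a promoter of Ciita, stood at 65.6 and 43.7 CPM in AdipoqTraced and 37.3 and 33.4 CPM in CD26 against 398 and 408 CPM in Adipocyte. It fell in AdipoqTraced by 2.88 (SE 0.55) and in CD26 by 3.51 (SE 0.57) on the log2 scale. With library size alone the estimate was -0.84 in AdipoqTraced, which did not pass, and -1.80 in CD26. H2-K1, a classical class I heavy chain gene, stood at 605 and 380 CPM in AdipoqTraced against 1584 and 1251 CPM in Adipocyte and fell by 1.52 (SE 0.24). Of 15 class I genes in AdipoqTraced against Adipocyte, 3 rose and 2 fell. The 2 that fell, H2-K1 and B2m, are the heavy chain gene and the common light chain gene, and Pdia3, Calr and Tapbp, which serve the loading of class I molecules, rose. The falls turned with the scaling: with library size alone H2-K1 was at 0.50, not called, and B2m at 0.89, called higher, beside the median gene at 2.25.

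No difference in class II RNA with the CD9 level of AP cells could be detected. EdgeR called 0 of 7 genes in AP_CD9High against AP_CD9Low, with 0 at an unadjusted p under 0.05, beside 0.0217% of all genes tested. DESeq2 called 0 as well, beside 0.592% of the genes to which it gave an adjusted p. H2-Ab1 averaged 79.4 ± 67.6 CPM in AP_CD9High and 50.7 ± 30.6 CPM in AP_CD9Low (SD, n = 2 each), a log2 fold change of 0.65 (95% interval -1.06 to 2.36). All 7 genes overlapped between the groups, and the intervals of H2-Aa and Cd74 were -1.02 to 1.58 and -0.80 to 1.40. For Ciita no fold is given at 3 and 0 against 0 and 22 counts.

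DN cells held more H2-Eb1, Cd74 and H2-DMb1 RNA than AP cells, at fitted folds of 2.97 to 3.46. EdgeR called these 3 of the 7 genes, all higher in DN, but 0 with its legacy = TRUE setting, while 6.75% of all genes tested were called in DN against AP and 4.57% were called higher. H2-Eb1 stood at 120 and 64.8 CPM in DN, against 18.6 and 46.8 CPM in AP_CD9High and 15.8 and 28.1 CPM in AP_CD9Low. It rose by 1.79 on the log2 scale (SE 0.44, a fold of 3.46, edgeR adjusted p = 0.0160). Cd74 rose by 1.57 (SE 0.42, a fold of 2.97, edgeR adjusted p = 0.0361). H2-DMb1 rose by 1.79 (SE 0.48, a fold of 3.45, edgeR adjusted p = 0.0307). The AP values combine both AP groups with equal weight, 4 libraries that share label numbers and may not be separate samples.

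H2-Aa averaged 87.1 ± 28.7 CPM in DN (n = 2) and 27.8 ± 16.3 CPM in AP (SD, n = 4), an estimate of 1.66 (SE 0.48, edgeR adjusted p = 0.0546) that did not pass. H2-Ab1 did not pass either (1.56, SE 0.62, edgeR adjusted p = 0.217). Both DN libraries lay above all 4 AP libraries in H2-Aa, H2-Ab1, H2-Eb1, Cd74 and H2-DMb1, but not in H2-DMa (0.91, SE 0.69) and Ciita. How often this occurs over all genes was not counted, so it is a description only. The median log2 fold change of the 7 was 1.66, beside 0 over all genes tested.

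The calls in DN against AP were not firm. On data simulated for this comparison the default fit made false calls more often than its threshold allows, and the legacy = TRUE setting of edgeR did not. Those false calls lay mostly at low counts. Apart from the genes changed on purpose, each simulated gene had the same mean level in all groups, unlike the data. The simulated rate therefore need not hold for H2-Eb1, Cd74 or H2-DMb1. DESeq2 also called 3 genes, beside 9.06% of the genes to which it gave an adjusted p. These were H2-Aa, H2-Eb1 and Cd74, and not H2-DMb1 (DESeq2 adjusted p = 0.335). With legacy = TRUE 0 genes were called, beside 3.37% of all genes tested. The number called also turned on which single library was left out. Over 16 alternatives the log2 fold change ran from 1.27 to 2.92 for H2-Eb1, 1.23 to 2.63 for Cd74 and 1.22 to 2.59 for H2-DMb1. The log2 fold change of H2-Eb1 was 1.27 without DN replicate 1 and that of Cd74 was 1.23.

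CD29 cells had higher estimates than AP cells in 7 of 7 genes, and 0 were called. Beside that 0 stood 3 genes at an unadjusted p under 0.05, while edgeR called 4.39% of all genes tested in CD29 against AP. DESeq2 called 0 as well, beside 6.26% of the genes to which it gave an adjusted p. Cd74 averaged 319 ± 239 CPM in CD29 (n = 2) and 111 ± 50.6 CPM in AP (SD, n = 4), an estimate of 1.53 (95% interval 0.62 to 2.43, edgeR adjusted p = 0.0581). H2-Eb1 had an estimate of 1.52 (95% interval 0.59 to 2.45, edgeR adjusted p = 0.0634). Their CD29 libraries overlapped with the AP libraries, as the lower CD29 library held 150.4 CPM of Cd74 and the highest AP library 169 CPM. CD29 and both AP groups share label numbers 2 and 4. With the number added to the fit as a term, 3 genes were called, beside 3.13% of all genes tested. The count also changed when single libraries were left out. Over 16 alternatives the log2 fold change ran from 0.46 to 2.15 for Cd74 and from 0.49 to 2.13 for H2-Eb1. With library size alone 3 genes were called, beside 6.11% of all genes tested.

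No difference between CD29 and DN cells in these genes passed the test. CD29 had label numbers 2 and 4 and DN had 2 and 3, so label number and group are partly mixed here. EdgeR called 0 of 7, with 0 at an unadjusted p under 0.05, beside 0.0598% of all genes tested in CD29 against DN. DESeq2 called 0 as well, beside 0.943% of the genes to which it gave an adjusted p. Cd74 averaged 319 ± 239 CPM in CD29 and 328 ± 97.2 CPM in DN (SD, n = 2 each), a log2 fold change of -0.04 (95% interval -1.12 to 1.03). H2-DMb1 was lower in CD29 without overlap, at -1.06 (95% interval -2.22 to 0.11, edgeR adjusted p = 0.674). The interval of H2-Ab1 was the widest among the classical chains, -2.02 to 1.27.

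**Figure D2:**
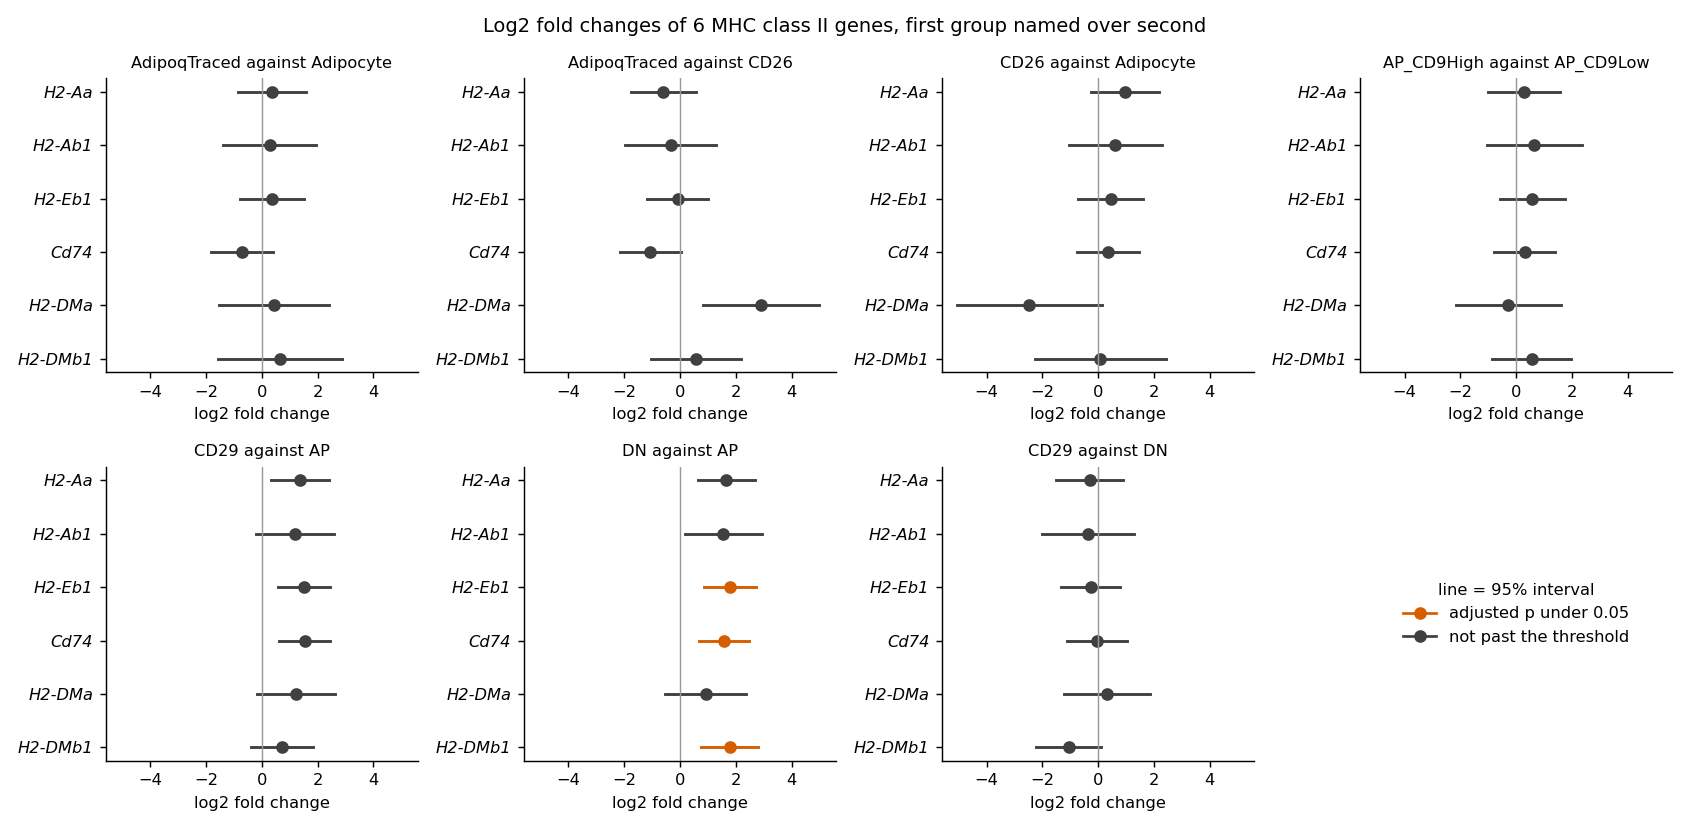
Log2 fold changes of 6 genes in the 7 comparisons, the first group named over the second, with 95% intervals from the fit over all 14 libraries; Ciita is left out because several of its libraries are at 0. Past the threshold are H2-Eb1, Cd74 and H2-DMb1 in DN against AP, at 1.79, 1.57 and 1.79, and 0 genes in the other 6 comparisons.

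As the plot of fold changes shows, the estimates of the classical chains in CD29 and in DN against AP have much the same size. These comparisons share the AP libraries, so their values stand side by side without a test of likeness. The groups also differ in label numbers, with 2 and 4 in CD29 and 2 and 3 in DN. Within number 2 alone, H2-Aa, H2-Ab1, H2-Eb1 and Cd74 summed to 297 CPM in CD29 and 859 CPM in DN. The AP libraries with that number held 142 and 119 CPM. Estimates for H2-Aa were 1.35 in CD29 and 1.66 in DN, those for Cd74 1.53 and 1.57, and those for H2-DMa 1.23 and 0.91. The widest gap among the 6 genes was that of H2-DMb1, 0.73 in CD29 and 1.79 in DN.

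Markers of leukocytes were also higher in both groups than in AP. All 7 leukocyte markers rose in DN against AP, with a median log2 fold change of 2.18, and all 7 rose in CD29 against AP, with a median of 1.49. Ptprc stood at 98.4 and 76.2 CPM in DN, against 25.0 and 24.1 CPM in AP_CD9High and 18.3 and 11.9 CPM in AP_CD9Low, a rise of 2.18 (SE 0.26). Of 15 macrophage and monocyte markers 13 rose in DN against AP, at a median of 2.46, and 10 rose in CD29 against AP. Their summed level was 4490 and 4048 CPM in CD29 and 10563 and 9386 CPM in DN, against 1214 to 2435 CPM in the AP libraries. Mast cell markers, 5 of 5 of which rose in DN, summed to 287 and 372 CPM in DN against at most 8.86 CPM in AP. Neutrophil markers rose in 4 of 5 tested cases in DN and summed to 207 and 549 CPM, against 38.1 to 79.1 CPM in AP. Keratinocyte markers rose in 3 of 5 cases in DN, at sums of 67.3 and 1395 CPM against 7.67 to 27.4 CPM in AP, so the DN libraries stood far apart in them. Endothelial markers rose in 2 of 5 cases in DN, at sums of 42.6 and 104 CPM against 21.01 to 41.3 CPM in AP. Of 5 pericyte markers 3 rose and 2 fell in DN, and 3 rose in CD29. Of 6 fibroblast markers 3 fell in DN, and 3 fell and 1 rose in CD29. In CD29 4 of 5 mast cell markers and 1 of 5 endothelial markers rose, and of neutrophil and keratinocyte markers edgeR called 0, with 2 of each at an unadjusted p under 0.05 and 1 and 2 called by DESeq2. With legacy = TRUE 6 leukocyte markers rose in CD29 and 7 in DN, and 8 macrophage and monocyte markers in CD29 and 12 in DN.

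Dendritic and lymphocyte markers were less marked. Of 11 dendritic cell markers 2 rose in DN against AP, Clec10a (2.72, SE 0.50), a lectin of dendritic cells and macrophages, and Irf8 (1.52, SE 0.38), a transcription factor of myeloid cells. With legacy = TRUE 0 of the 11 were called. The B cell gene Ms4a1 was at 0 in all 14 libraries. The T cell gene Cd3e was at 0 in 12 libraries, as was the Langerhans cell gene Cd207. Other listed genes were found more often, with Trac, Trbc2 and Lck of T cells and Cd79b of B cells at 0 in 7 libraries each. Epcam, the other Langerhans marker listed, was called higher in DN against AP (log2 fold change 8.92) but not with legacy = TRUE. It stood at 0.324 and 6.03 CPM in DN and at 0 in the AP libraries. Over all libraries, 7 T cell markers summed to at most 13.8 CPM, 5 B cell markers to at most 3.60 CPM and 2 Langerhans cell markers to at most 8.01 CPM. The part of these cell type markers in the class II differences was not tested.

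Dividing by Ptprc puts these values on a scale that does not depend on library size. For each count of Ptprc, CD29 held 7.75 and 16.0 counts of H2-Aa, H2-Ab1, H2-Eb1 and Cd74 together, and DN held 8.73 and 6.94. AP_CD9High held 5.67 and 16.1 and AP_CD9Low 6.53 and 23.2. DN was thus within the range of AP on this scale, whereas its 4-gene sum in CPM, 859 and 529, lay above all AP libraries, at 119 to 388. The AP values of 16.1 and 23.2 came from libraries with label number 4, which DN lacks. Within number 2, DN held 8.73, against 5.67 in AP_CD9High and 6.53 in AP_CD9Low. The DN library with number 3 held 6.94. In the new set AdipoqTraced held 6.52 and 6.80 counts per count of Ptprc and CD26 6.86 and 7.12, against 18.7 and 24.7 in Adipocyte. Against the sum of the 7 leukocyte markers the same 4 genes gave 1.37 and 1.45 in AdipoqTraced and 1.42 and 1.96 in CD26, against 2.45 and 2.84 in Adipocyte, still without overlap. These ratios were formed after the levels were seen and carry no test.

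**Figure D3:**
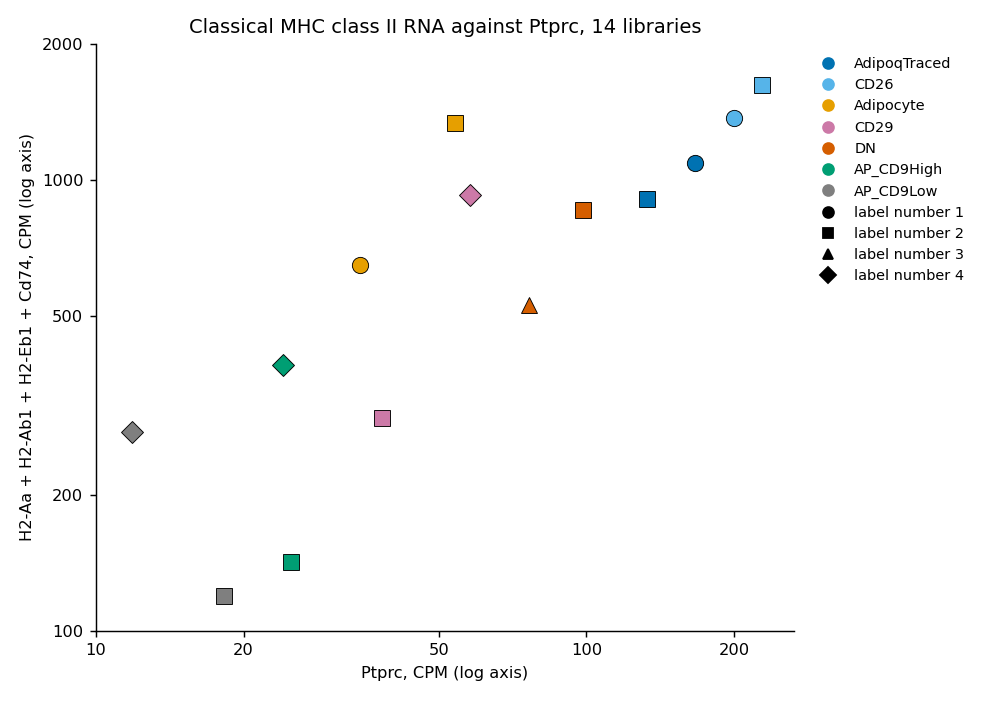
Summed CPM of H2-Aa, H2-Ab1, H2-Eb1 and Cd74 against the CPM of Ptprc in each of the 14 libraries, both on log axes, with colour for the group and symbol for the number in the label. The AdipoqTraced and CD26 libraries lie at 133 to 228 CPM of Ptprc and 906 to 1626 CPM of the sum, and the Adipocyte libraries reach 647 and 1334 CPM of the sum at 34.5 and 53.9 CPM of Ptprc.

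The plot against Ptprc shows a second division, by the number in the label within the reanalysed set. In each of the 3 groups that had label numbers 2 and 4, the library with number 4 held the higher 4-gene sum: 927 against 297 CPM in CD29, 388 against 142 CPM in AP_CD9High and 275 against 119 CPM in AP_CD9Low. These are folds of 3.13, 2.74 and 2.31. Ptprc did not follow, at folds of 1.52, 0.964 and 0.650 in the same groups. DN had numbers 2 and 3, and its number 3 library held 0.616 times the sum of its number 2 library.

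Per count of Ptprc the libraries with number 4 stood at 16.0, 16.1 and 23.2 and the 4 libraries with number 2 at 5.67 to 8.73. Within number 2 alone, the 4-gene sum was 297 CPM in CD29 and 859 CPM in DN, against 142 and 119 CPM in the AP groups. Within number 4 alone it was 927 CPM in CD29 against 388 and 275 CPM in the AP groups. Irf1, singled out after its values were seen, was 3.05, 1.57 and 1.93 times as high in number 4 as in number 2 in AP_CD9High, AP_CD9Low and CD29, and 2.83 times as high in number 3 as in number 2 in DN. What the numbers stand for is not given in the sources used here, and the part of any factor that goes with them was not tested.

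**Figure D4:**
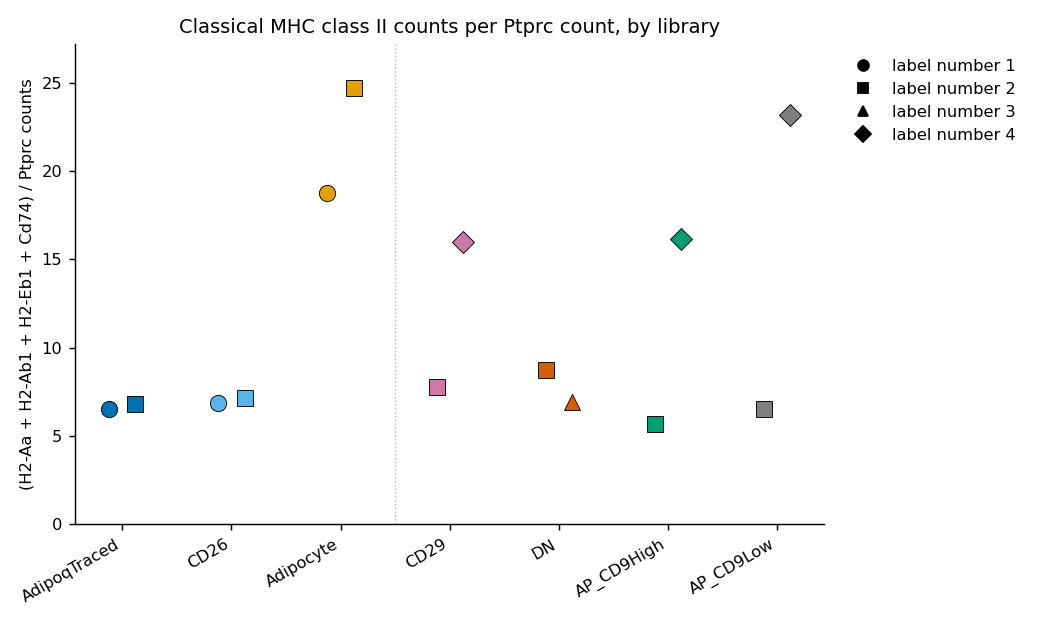
Counts of H2-Aa, H2-Ab1, H2-Eb1 and Cd74 together per count of Ptprc in each library, on a linear axis from 0, with colour for the group and symbol for the number in the label. Libraries lie either between 5.67 and 8.73 or at 16.0 and above, and the higher ones are both Adipocyte libraries and the 3 libraries with label number 4.

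Lists of partner genes of class II differed in how many were called in the reanalysed set, without a test between lists. Over all genes tested, edgeR called 6.75% in DN against AP and 4.39% in CD29 against AP. Genes of antigen processing rose in 5 of 8 cases in DN against AP and in 2 of 8 in CD29 against AP, and 0 fell. Ctss, the cathepsin that trims the invariant chain, stood at 511 and 626 CPM in CD29 and 982 and 1098 CPM in DN, against 131 to 281 CPM in the AP libraries. It rose by 1.49 in CD29 (SE 0.30) and by 2.36 in DN (SE 0.30). Ctsd, another endosomal protease, rose by 0.76 in CD29 (SE 0.16) and by 1.70 in DN (SE 0.16). With legacy = TRUE the counts were again 5 in DN and 2 in CD29.

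Costimulation genes rose in 3 of 6 cases in DN and in 2 of 6 in CD29. Cd86 stood at 15.9 and 17.9 CPM in CD29 and 35.5 and 46.4 CPM in DN, against 2.096 to 9.13 CPM in AP, with a rise of 1.91 (SE 0.42) in CD29 and of 3.19 (SE 0.39) in DN. Cd83, which protects class II and Cd86 from turnover at the cell surface, rose by 1.68 (SE 0.32) in CD29 and by 2.80 (SE 0.32) in DN. With legacy = TRUE 1 of the 6 rose in DN and 0 in CD29.

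The transcription genes of the pathway did not pass in any comparison. Of Rfx5, Rfxap, Rfxank, Creb1, Nfya, Nfyb and Nfyc, which encode the complex at the X and Y boxes, 0 of 7 were called by edgeR in any of the 7 comparisons, with 0 to 2 at an unadjusted p under 0.05, and DESeq2 called 1 in DN against AP and 0 in the others. In the reanalysed set these 7 genes summed to 70.1 to 112 CPM per library, against 3841 to 8744 CPM for the 8 processing genes. The part of this lower level in the lack of calls was not tested. Rfx5, a subunit of the factor that binds the X box, averaged 2.73 CPM in DN against 5.33 CPM in AP (-0.79, SE 0.89). Of 6 genes of the interferon gamma pathway, Jak1, a kinase of the receptor, fell by 0.86 (SE 0.21) in CD29 and by 0.78 (SE 0.21) in DN against AP, and the other 5 were not called in either. With legacy = TRUE Jak1 was called in neither. Of 15 class I genes edgeR called 0 in CD29 or DN against AP. At an unadjusted p under 0.05 there were 5 in CD29 and 3 in DN, and DESeq2 called 2 in CD29 and 0 in DN. The remaining class II genes were close to absence at this depth, with H2-Oa at 0 in 13 libraries, H2-Ob in 10 and H2-Eb2 in 12. The turnover gene March1, whose product marks class II for degradation, averaged 4.01 CPM in CD29 and 4.13 CPM in DN against 0.89 CPM in AP, with estimates of 2.13 (SE 0.83) in CD29 and 2.24 (SE 0.82) in DN that did not pass.

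Genes whose levels followed the 4 classical genes most closely included several known from myeloid cells. The likeness was the lower of 2 Pearson correlations of log2 CPM with the mean of H2-Aa, H2-Ab1, H2-Eb1 and Cd74, one over the 6 new and one over the 8 reanalysed libraries, ranked over 11629 genes. Ccr7, the chemokine receptor that guides dendritic cells to lymph nodes, came first among genes other than those followed here, at 0.987 and 0.952. It stood at 7.28 and 3.09 CPM in AdipoqTraced, 15.2 and 20.7 CPM in CD26 and 0 and 8.79 CPM in Adipocyte, so the new set spans a library at 0. Clec4a3, a myeloid lectin gene, followed at 0.900 and 0.896, then Mmp12, the macrophage elastase gene, Clec7a, a receptor of fungal glucans, St3gal6, Clec4a1, Armc7, Cybb, the catalytic subunit of the phagocyte oxidase, Rin3 and Lpcat2. For the genes followed here the lower correlation was 0.958 for H2-Aa, 0.932 for H2-Ab1, 0.895 for H2-Eb1, 0.794 for H2-DMb1, 0.562 for Cd74, 0.006 for H2-DMa and -0.054 for Ciita, of which H2-Aa, H2-Ab1, H2-Eb1 and Cd74 are part of the mean itself. Libraries of a group share their sort and their set, and no test was made of these correlations.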

How the data were processed

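The values are raw read counts per Ensembl gene as deposited by the authors, whole numbers without normalization, 1 column per library, and 0 columns of other samples. Per the submitters' processing notes the tools include StringTie 1.3.3b, HISAT2 2.1, CASAVA 1.8.2 and DESeq2, with the build mm10 and no roles. The sources used here give neither annotation nor strand setting. GENCODE M21 gave symbols for 52489 of 52636 identifiers. Counts were fitted with edgeR 4.0.16 in R 4.3.3 (TMM, filterByExpr by group, glmQLFit with robust = TRUE, glmQLFTest, two-sided), with 1 coefficient per group over 14 libraries, 7 residual degrees of freedom, and Benjamini-Hochberg adjustment over 18394 genes. Calls were made at 0.05. AP is the mean of both AP coefficients. SE is the absolute log2 fold change over the square root of F. On simulated data the procedure kept false calls within its threshold in AdipoqTraced against CD26 and exceeded it in DN against AP, where legacy = TRUE did not; the other comparisons were not simulated. DESeq2 1.42.0 and other settings were alternatives.

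The genes, lists and tests were chosen with earlier results of these data known. The rule named all 7 genes, up to 2 called genes of smallest p per list, defining leukocyte markers and the 10 genes of most like pattern (at least 10 CPM in a library; pseudocount 0.5 CPM). Other genes printed were chosen after their values were seen. No replicate pair held identical values, and every pair differed by more than counting noise.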

Additional observations from a re-analysis of the deposited data

Results flagged for a closer look

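Ciita among the 4 AP libraries had 1 sample far from the others: its gap to the nearest library was 0.864 of the whole range, above Dixon's 95% limit for 4 samples. The counts behind it were 3 and 0 in AP_CD9High and 0 and 22 in AP_CD9Low. Chance flags about 1 in 20 groups.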

How the results depend on the processing

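With library size alone, 6 genes were called in AdipoqTraced against Adipocyte, 4 in CD26 against Adipocyte, 3 in CD29 against AP and 4 in DN against AP. All genes called were then 44.6%, 35.3%, 6.11% and 7.72% in the same order. The log2 fold change of Cd74 became 1.38 in AdipoqTraced against Adipocyte and 0.028 in CD29 against DN, and in AdipoqTraced against CD26 those of H2-Ab1 and H2-Eb1 became 0.016 and 0.25. With legacy = TRUE 0 genes were called in DN against AP; the cause was not tested.

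Over all genes tested, the differences between the libraries of a group did not go together across groups (correlation of deviations -0.028 to 0.049). The 4-gene sum did, at number 4 over number 2 folds of 2.74 in AP_CD9High, 2.31 in AP_CD9Low and 3.13 in CD29. Whether the numbers pair samples is therefore not settled. With the replicate block 3 genes were called in CD29 against AP, beside 3.13% of all genes tested, and H2-DMa turned to -0.46 in CD29 against DN. Over all 14 alternatives for CD29 against DN, H2-Aa ran from -1.49 to 0.23 and H2-Ab1 from -1.77 to 0.24. H2-Eb1 ran from -1.50 to 0.34 and Cd74 from -1.21 to 0.57. The lows of these genes lay below those found with 1 library left out. Number 3 occurred only in DN, so the block leaves DN with 1 library and its calls are not given. Outside DN against AP, no other count of calls changed with the block.

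Leaving out 1 library leaves a lone library assumed to vary like the other groups. It changed the number called in DN against AP, CD29 against AP and AdipoqTraced against CD26. In AdipoqTraced against Adipocyte the log2 fold changes ran from -0.032 to 1.16 for H2-Aa, -0.16 to 1.13 for H2-Ab1, -0.092 to 1.31 for H2-Eb1, -2.28 to 1.99 for H2-DMa, -0.17 to 10.58 for H2-DMb1 and -9.39 to 3.14 for Ciita. In AdipoqTraced against CD26 they ran from -0.23 to 0.0018 for H2-Eb1 and -9.65 to 2.08 for Ciita, and in CD26 against Adipocyte from -0.71 to 10.04 for H2-DMb1 and -0.56 to 2.08 for Ciita. In AP_CD9High against AP_CD9Low they ran from -0.70 to 1.26 for H2-Aa, -0.67 to 1.45 for H2-Ab1, -0.22 to 1.08 for H2-Eb1, -0.37 to 0.99 for Cd74, -0.99 to 0.44 for H2-DMa, -0.091 to 1.68 for H2-DMb1 and -6.11 to 3.37 for Ciita. In CD29 against DN they ran from -1.11 to 0.23 for H2-Aa, -1.43 to 0.24 for H2-Ab1, -1.30 to 0.34 for H2-Eb1, -1.12 to 0.57 for Cd74, -0.11 to 0.69 for H2-DMa and -7.10 to 6.19 for Ciita. For Ciita they ran from -4.75 to 4.52 in CD29 against AP and -4.71 to 5.38 in DN against AP. Fits of genes at 0 in a lone library depend on the prior count and are no bounds.

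Among 56 results and 24 alternative settings, gene values kept their direction and side of the threshold in 625 cases, lost a call in 18, gained one in 30 and reversed in 40. Counts of calls were equal in 82 cases, changed by at most 1.5 times in 8 and by more in 12. Depth limits Ciita, H2-DMa and H2-DMb1 most, and Adipocyte most among the groups.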
